A study of Schmidtea mediterranea with 32 samples.

Results

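This section describes what happened to the transcripts of sexual planarians between 4 and 6 feedings of RNAi against nhr-1. The comparison used the 8 knock-down libraries labelled with 4 feedings (replicates 1, s1, s2 and s3) or 6 feedings (replicates 1, s1, s2 and s3), chosen by their titles out of the 32 libraries of the series, and it was read on contigs with the prefix SmedSXL. The planarian Schmidtea mediterranea is a freshwater flatworm, and every library was made from poly(A) RNA of whole animals of the sexual biotype S2F2. The same feedings under control RNAi, labelled UNC, served as the reference, with 4 libraries at 4 feedings and 3 at 6 feedings. The labels name no other treatment, allele or age, and they do not say how many animals entered a library or whether replicates came from separate cultures. P-values therefore measure the spread between these libraries, which may be technical.

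Nuclear hormone receptors are transcription factors, many of which are controlled by lipid-like ligands. Sexual planarians are hermaphrodites that carry testes, ovaries, yolk glands and accessory copulatory organs, and nhr-1 is known in S. mediterranea as a receptor needed to form and keep this reproductive system. In planarians RNAi is commonly given by feeding double-stranded RNA, so that the number of feedings stands for both the dose and the duration of a knock-down. The count table pairs no contig with a gene name, so nhr-1 itself and markers of reproductive organs were not analysed here and the contigs are described by their values. In whole-animal RNA, fewer cells of a type and less RNA per cell cannot be told apart.

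The 8 libraries held 4912053 to 9128854 counts on SmedSXL contigs each. One contig, SmedSXL_088910 (1006 bases), took 36.9% of these counts in replicate s2 at 4 feedings, 8.91% to 17.5% in the other 3 libraries at 4 feedings and 11% to 22.8% at 6 feedings. Its mean share was 20.2% ± 11.9 (SD, n = 4) at 4 feedings and 17.8% ± 4.93 (SD, n = 4) at 6 feedings, and no difference was detected (exact permutation test, two-sided p = 0.857, where the smallest p the design allows is 0.0286). Replicate s2 also stood apart in breadth. In it 10.4% of the 23870 SmedSXL contigs tested had 0 counts, against 0.323% to 1.14% in the other libraries at 4 feedings and 0.708% to 1.29% at 6 feedings. The numbers of contigs called in the step and in its difference from the control are therefore given below with and without replicate s2, and the other counts include it.

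Nearly all changes called between 4 and 6 feedings were losses. Of the 23870 contigs tested, 1414 (5.92%) were lower at 6 than at 4 feedings and 5 (0.0209%) were higher, with an adjusted p under 0.05 (quasi-likelihood test of edgeR, Benjamini-Hochberg adjustment over all sequences tested). The median log2 fold change of the lower contigs was -1.75, with the middle 80% of them between -2.54 and -1.27. Of these contigs 1370 (96.9%) were at least 2-fold lower, 410 (29.0%) at least 4-fold and 85 (6.01%) at least 8-fold. Their median level fell from 7.13 to 2.13 CPM, the count-per-million scale, taken over the whole table after TMM normalization. The median log2 fold change of all tested contigs was 0.02. In 1240 of the 1414 contigs (87.7%) no library at 6 feedings reached the lowest library at 4 feedings, whereas the groups did not overlap in either direction for 9.51% of all contigs.

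**Figure D1:**
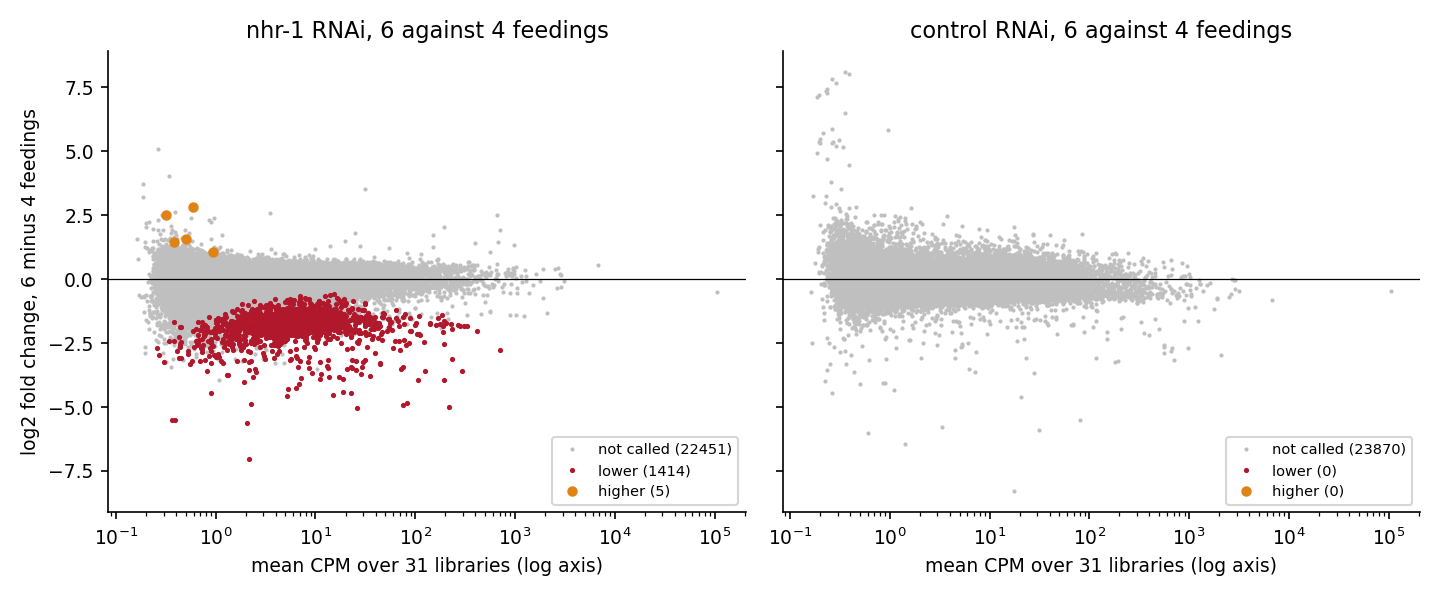
Log2 fold change from 4 to 6 feedings (y axis) against the mean CPM of each of 23870 SmedSXL contigs over 31 libraries (x axis, log scale), under nhr-1 RNAi (left) and control RNAi (right). Each point is a contig; red points are the 1414 contigs called lower and orange points the 5 called higher under nhr-1 RNAi, while edgeR called 0 in the control.

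Loss was deep but rarely complete. Only 3 of the 1414 lower contigs had 0 counts in all 4 libraries at 6 feedings, and these held 18 to 44 counts over the 4 libraries at 4 feedings. At most 3 counts over the 4 libraries remained for 14 contigs. Without replicate s2 at 4 feedings 1243 contigs were lower and 0 higher, and 1125 of the 1414 contigs (79.6%) were among them. The count was 817 without replicate s3 at 4 feedings and 661 without replicate 1 at 6 feedings, and 647 of the contigs (45.8%) were called lower in each of the 8 fits that left out 1 knock-down library. Within the libraries named with s, 875 contigs were lower and 6 higher. Of those 875, 874 could be followed in the libraries named 1, and 869 of them (99.4%) were lower at 6 than at 4 feedings there, compared with 45.9% of all tested contigs. Their median log2 CPM difference in the libraries named 1 was -1.93, against 0.04 over all contigs.

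Of 541 contigs that met the conditions for naming, SmedSXL_034119 had the most negative log2 fold change, and SmedSXL_006914 the greatest drop in CPM among those whose profile was not close to that of SmedSXL_034119. The conditions included a call in the step, groups without overlap and a call also without replicate s2 at 4 feedings. Those traits of both contigs therefore follow from their choice. SmedSXL_034119 (290 bases) stood at 1.34, 9.29, 71.3 and 13.0 CPM in replicates 1, s1, s2 and s3 at 4 feedings. At 6 feedings it stood at 0.137, 1.22, 0.867 and 0.481 CPM in the same order, on 2, 22, 14 and 6 counts. The groups did not overlap, but replicate 1 at 4 feedings lay close to the highest library at 6 feedings, and replicate s2 carried most of the mean of 23.7 ± 32.1 CPM (SD, n = 4) at 4 feedings. On the log2 scale the change was -5.06 (SE 1.01, adjusted p = 0.00302 by edgeR), and it was -3.54 when replicate s2 was left out (adjusted p = 0.0163 by edgeR). In the controls the contig held 18.1 to 46.8 CPM at 4 feedings and 13.7 to 26.0 CPM at 6 feedings, ranges that overlap. At 4 feedings the knock-down library s2 lay above every control and the other 3 lay below the lowest one, and at 6 feedings all 4 knock-down libraries lay below every control. The contig was also high in the control replicates s2 and s3 at 11 feedings, with 171 and 281 CPM against 7.3 and 17 CPM in replicates 1 and s1. Together with s2 of the knock-down at 4 feedings these are the libraries in which SmedSXL_088910 took over 30% of the SmedSXL counts, and the part of this in the values of SmedSXL_034119 was not tested.

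SmedSXL_006914 (1069 bases) was an abundant contig that declined in part. It stood at 240, 352, 467 and 472 CPM in replicates 1, s1, s2 and s3 at 4 feedings and at 56.6, 116, 98.8 and 155 CPM at 6 feedings. The groups did not overlap, which the conditions for naming required, and replicate 1 was the lowest library of both. The mean at 6 feedings was 27.9% of that at 4 feedings (107 ± 40.9 against 383 ± 110 CPM, SD, n = 4 each), which is -1.84 on the log2 scale (SE 0.36, adjusted p = 0.00272 by edgeR). The control libraries ranged from 337 to 668 CPM at 4 feedings and from 427 to 543 CPM at 6 feedings, and their estimated change was -0.10 on the log2 scale (adjusted p = 0.941 by edgeR). This profile was widely shared. Over the 31 libraries compared, the log2 CPM of 774 other SmedSXL contigs correlated with it at r over 0.95, and 703 of these were lower at 6 than at 4 feedings. Over all tested contigs 5.92% were lower. The correlation includes the libraries of the step, in which SmedSXL_006914 was chosen for its drop, so contigs that follow its profile tend to drop there too. These contigs were measured in the same libraries and some may be pieces of 1 transcript, so the number is a description. For SmedSXL_034119 the corresponding numbers were 245 and 201.

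**Figure D2:**
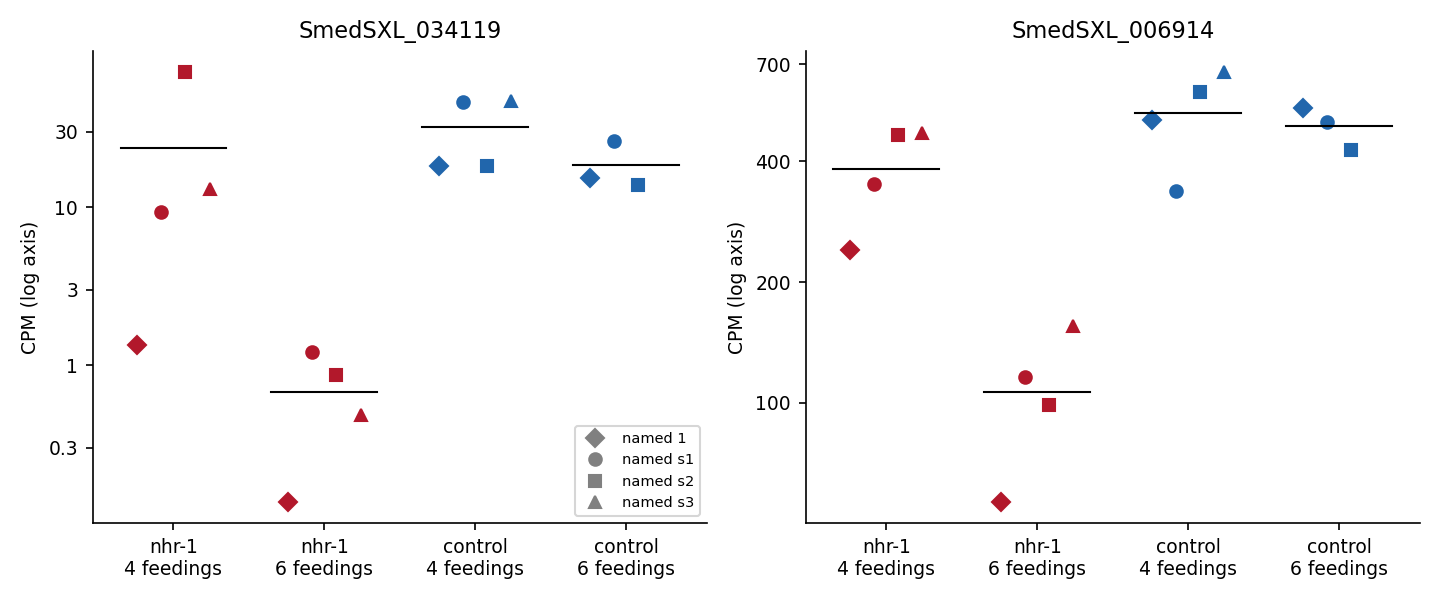
CPM (y axis, log scale) of SmedSXL_034119 (left) and SmedSXL_006914 (right) in every library at 4 and 6 feedings under nhr-1 RNAi (red) and control RNAi (blue). Symbols give the replicate name and black lines the group mean; the red points at 6 feedings lie below every other point of both contigs.

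The same step in feedings was examined without the knock-down. Between 4 and 6 feedings under control RNAi, edgeR called 0 SmedSXL contigs (0%), while 1270 (5.32%) had an unadjusted p under 0.05. In this control step DESeq2 called 8 contigs and limma voom with sample weights 3210. Limma voom called 2027 lower and 1183 higher in the control step, against 2100 lower and 340 higher in the knock-down step. By this tool the knock-down step therefore did not have more calls than the control step. DESeq2 called 1761 lower and 14 higher in the knock-down step. The 1414 contigs that were lower in the knock-down had a median log2 fold change of 0.03 in the control, and 640 of the estimates (45.3%) were negative, against 53.1% over all contigs. The difference between the 2 steps was tested directly as an interaction. It was called for 269 contigs, of which 261 (1.09%) changed more negatively in the knock-down and 8 (0.0335%) more positively. Of the 261, 258 were also lower in the knock-down step, and their medians were -1.88 in the knock-down and 0.25 in the control. The estimate was negative for all 1414 lower contigs, a sign that their choice by the knock-down step largely fixed. The number of calls depended on the processing. It was 0 with only the libraries of the contrast, where 2833 contigs had an unadjusted p under 0.05, and 0 within the libraries named with s, where 2564 did. Leaving out 1 knock-down library gave 7 calls for replicate s3 and 502 for replicate s2 of the 4-feeding group, and 19 for replicate 1 and 74 for replicate s2 of the 6-feeding group. Leaving out 1 control library gave 488 calls for replicate 1 and 62 for replicate s1 of the 4-feeding group, and 7 for replicate 1 and 111 for replicate s2 of the 6-feeding group. Neither contig named above passed this test (edgeR adjusted p = 0.107 for SmedSXL_034119 and 0.0988 for SmedSXL_006914).

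Contigs that were low at the later feedings were then followed back through the step. At 8 feedings 3362 contigs (14.1%) and at 11 feedings 5894 (24.7%) were lower in the knock-down than in the control, and 3144 were lower at both. This list was drawn from libraries that do not enter the comparison of 6 with 4 feedings, although the same fit supplied the spread. The median log2 fold change of the 3144 contigs from 4 to 6 feedings was -1.45 under nhr-1 RNAi, with negative estimates for 3075 (97.8%) against 48.5% over all contigs. Of the 3144, 1384 (44.0%) were called lower and 0 higher, against the background of 5.92%. Under control RNAi their median was 0.05. Conversely, 1384 of the 1414 lower contigs (97.9%) belonged to this list, which held 3144 of the 23870 contigs tested. The other 30 also had negative estimates against the control at 8 and 11 feedings. How many of all tested contigs had negative estimates at both was not counted. The 1760 contigs of the list that were not called from 4 to 6 feedings had a median of -1.11. They were less abundant in the control at 8 feedings, with a median of 4.52 CPM, than the called ones, with 8.45 CPM.

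**Figure D3:**
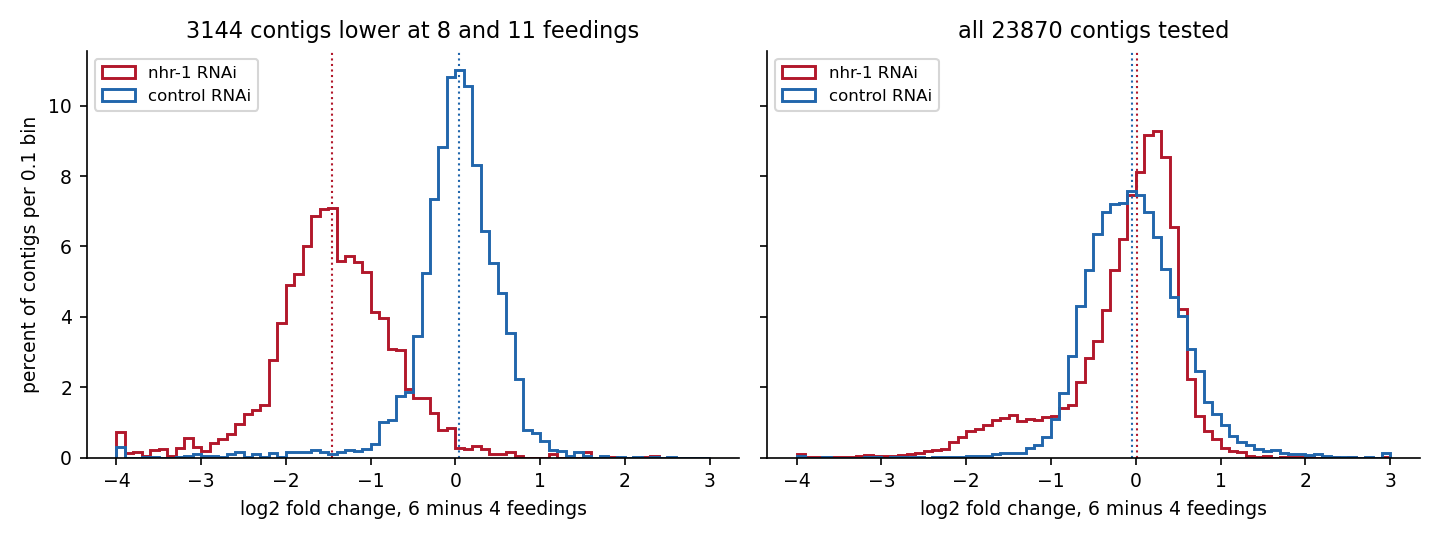
Distribution of the log2 fold change from 4 to 6 feedings (x axis, values outside -4 to 3 placed at the ends; y axis, percent of contigs in bins of 0.1) under nhr-1 RNAi (red) and control RNAi (blue), for the 3144 contigs lower at both 8 and 11 feedings (left) and all 23870 contigs tested (right). Dotted lines are medians, at -1.45 and 0.05 on the left and 0.02 and -0.04 on the right.

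The libraries at 4 feedings were spread widely in the level of these contigs, from near the control mean downwards. Relative to the mean of the controls at the same feedings, the median contig of the list stood at 60.8% in replicate 1, 71.6% in s1, 82.4% in s2 and 96.4% in s3 at 4 feedings. The control libraries at 4 feedings stood at 115% in replicate 1, 64.3% in s1, 117% in s2 and 110% in s3. Thus 3 of the 4 knock-down libraries lay within the range of the controls, but only because of control replicate s1. All 4 knock-down libraries lay below the other 3 controls. At 6 feedings the same measure was 19.7% in replicate 1, 28.9% in s1, 29.5% in s2 and 32.0% in s3, while the controls ranged from 93.1% to 114%. The groups at 6 feedings did not overlap, and replicate 1 was the lowest knock-down library at both feedings.

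In absolute terms the median log2 CPM of the list was 2.23 ± 0.279 (SD, n = 4) at 4 feedings and 0.903 ± 0.366 (SD, n = 4) at 6 feedings. For the controls it was 2.68 ± 0.438 (SD, n = 4) and 2.83 ± 0.169 (SD, n = 3). Over all tested contigs the median log2 CPM was 1.81 at 4 feedings and 1.61 at 6 feedings in the knock-down, and 1.92 and 1.84 in the control. The knock-down libraries did not overlap in it, with 1.73 to 1.91 at 4 feedings and 1.55 to 1.67 at 6 feedings. For the 3144 contigs each of the 16 pairs of a 6-feeding and a 4-feeding knock-down library gave a negative median difference, from -2.05 to -0.67. Against replicate s3 at 4 feedings the difference was -2.05 to -1.39 and against replicate 1 it was -1.51 to -0.67. In the knock-down the 3144 contigs took 4.93% to 9.04% of the SmedSXL counts at 4 feedings and 2.18% to 2.9% at 6 feedings. In the controls they took 9.13% to 13.8% at 4 feedings and 9% to 16% at 6 feedings. Every knock-down library lay below every control of the same feedings, narrowly at 4 feedings. The lowest of the shares at 4 feedings was that of replicate s2, in which SmedSXL_088910 took 36.9%.

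**Figure D4:**
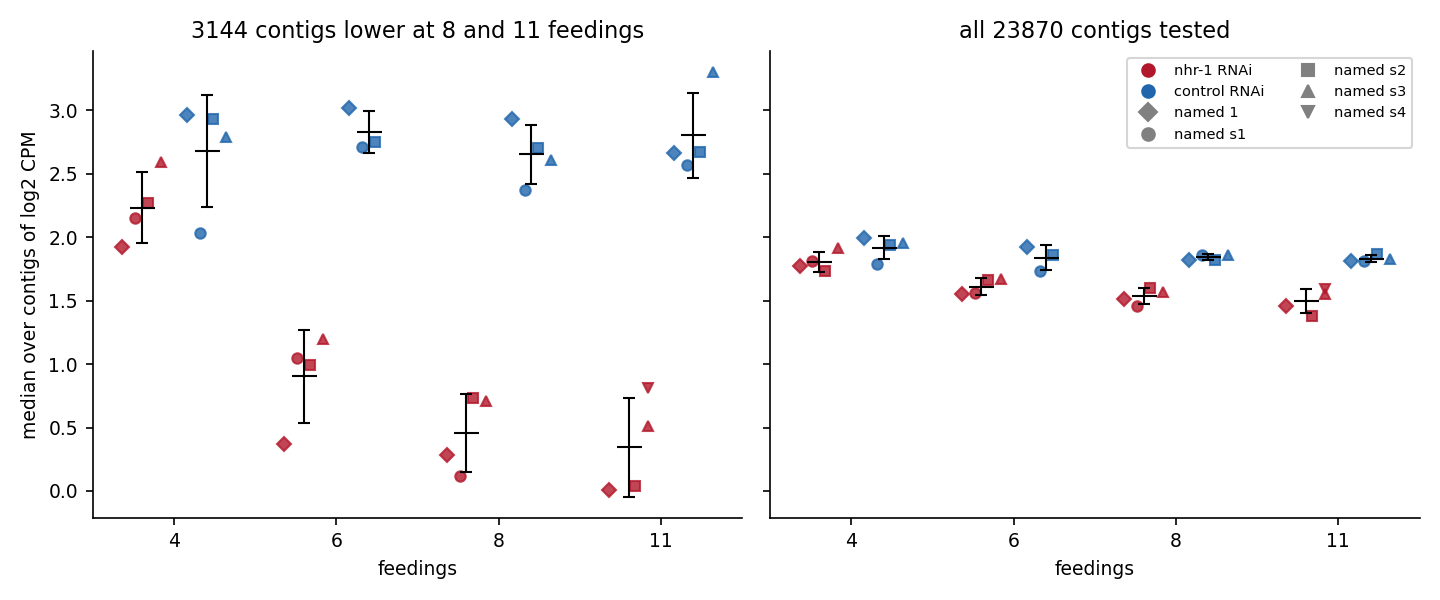
Median log2 CPM (y axis) per library at 4, 6, 8 and 11 feedings (x axis), for the 3144 contigs lower at both 8 and 11 feedings (left) and all 23870 contigs tested (right). Red is nhr-1 RNAi and blue control RNAi, symbols give the replicate name, and black bars are the group mean ± SD; on the left the red points lie between 1.92 and 2.59 at 4 feedings and between 0.37 and 1.20 at 6 feedings, whereas the values at 8 and 11 feedings follow from the choice of the list.

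Counting contigs instead of levels gave the same order of libraries at the extremes. A contig was counted where a library lay under 50% of the control mean at the same feedings. At 4 feedings this held for 41.7% of the 3144 contigs in replicate 1, 18.7% in s1, 26.8% in s2 and 12.1% in s3. In the controls at 4 feedings it held for 34.7% in replicate s1 and for 2.77% to 4.8% in the others. At 6 feedings it held for 82.9% to 94.8% of them per knock-down library and 0.509% to 8.81% per control library. Over all tested contigs the share was 5.98% to 33.6% at 4 feedings, highest in replicate s2, and 17.5% to 21.1% at 6 feedings in the knock-down. All 4 knock-down libraries were under 50% for 188 contigs (5.98%) at 4 feedings and for 2415 contigs (76.8%) at 6 feedings. At 4 feedings 1159 contigs (36.9%) were under 50% in 0 of the 4 libraries, and at 6 feedings 84 (2.67%) were. In the controls at 4 feedings, which themselves set the mean, 1866 contigs (59.4%) were under 50% in 0 of the 4 libraries. These counts were not made over all tested contigs.

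The step differed in size between contigs with a small and a large later loss. Contigs were grouped by their log2 fold change between knock-down and control at 8 feedings, which uses libraries outside the step. The 455 contigs with a log2 loss under 1.5 had a median of -0.65 from 4 to 6 feedings and 65 of them (14.3%) were called lower. For the 1493 contigs with a loss of 2 to 3 the median was -1.58 and 856 (57.3%) were called, and for the 372 with a loss of 3 to 4 it was -1.98 with 217 called (58.3%). The 261 contigs with a loss over 4 had a median of -1.89 and only 85 (32.6%) were called. These contigs already stood at -2.30 against the control at 4 feedings, where the other classes stood between -0.54 and -0.30, and their control median from 4 to 6 feedings was -0.56. The value against the control at 4 feedings and the step share the 4-feeding knock-down libraries and are given side by side only.

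**Figure D5:**
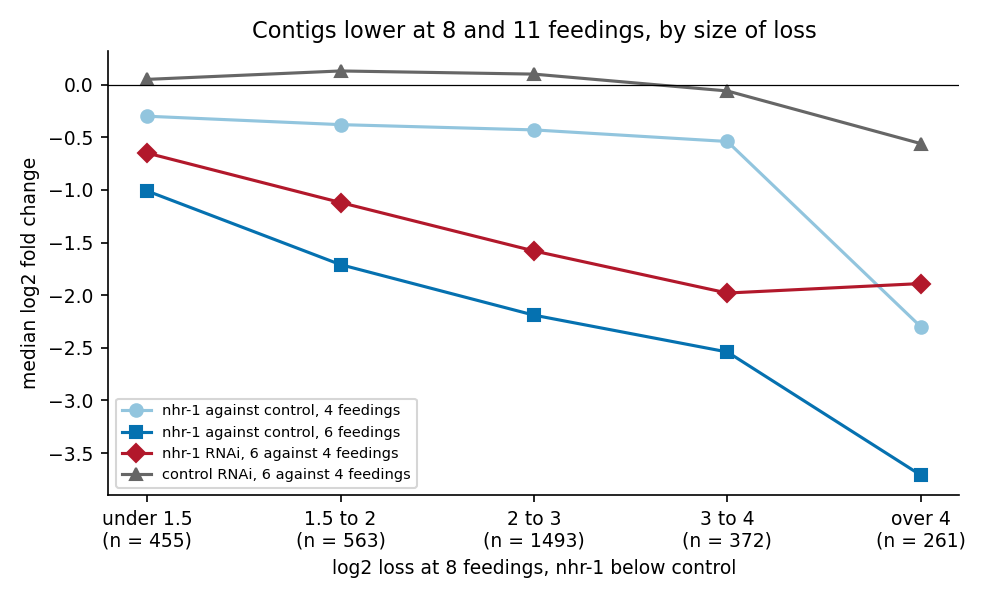
Median log2 fold change (y axis) of the 3144 contigs lower at both 8 and 11 feedings, in 5 classes of log2 loss against the control at 8 feedings (x axis, n contigs in brackets), for the knock-down against the control at 4 and at 6 feedings and for the step from 4 to 6 feedings in each arm. The class with a loss over 4 stands at -2.30 at 4 feedings, and the other classes between -0.54 and -0.30.

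Few contigs were called lower than the control at 4 feedings, the lowest number of feedings sampled. The 3144 contigs lower at 8 and 11 feedings nevertheless had a median log2 fold change of -0.43 against the control there. At 4 feedings 85 contigs (0.356%) were already called lower in the knock-down than in the control. Their median log2 fold change was -3.72, and all 85 were in the list lower at 8 and 11 feedings. Their median from 4 to 6 feedings was -1.14, and 16 of them were called lower in that step. The choice of these 85 used the 4-feeding knock-down libraries, which are also part of the step, so nothing is read from this count. The 1414 lower contigs as a whole had a median of -0.42 against the control at 4 feedings and -2.27 at 6 feedings, where 1402 of them were called lower. At 6 feedings 2878 contigs in all (12.1%) were lower than the control and 130 (0.545%) were higher. Those comparisons share the knock-down libraries with the step.

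The share of contigs called lower varied with contig length. Contigs of 500 to 1000 bases were called lower in 9% of cases (603 of 6698), those of 1000 to 2000 bases in 6.11%, those under 500 bases in 5.52% and those over 2000 bases in 1.49% (70 of 4711). The median length of the lower contigs was 932 bases, against 1142 bases over all contigs tested. Length was also related to the change of contigs in general, because the median log2 fold change of all contigs went from -0.30 under 500 bases to 0.27 over 2000 bases. Without replicate s2 at 4 feedings these medians were 0.03 and 0.01. In the control step the corresponding medians were -0.31 and 0.25, and -0.20 and 0.22 without control replicate s1 at 4 feedings. For the 3144 contigs lower at 8 and 11 feedings the medians were -1.87 under 500 bases, -1.63 at 500 to 1000, -1.25 at 1000 to 2000 and -1.22 over 2000 bases. Without replicate s2 they lay between -1.58 and -1.34 in the 4 length classes. With replicate s2 kept, the median difference from the control step lay between -1.68 and -1.47 in these classes.

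By abundance, 8.48% of contigs with a mean of 1 to 10 CPM were lower, 6.47% of those with 10 to 100 CPM and 5.34% of those with over 100 CPM (31 of 581). Below 1 CPM the share was 1.2%, with a median log2 fold change of -2.43 among the 77 called contigs. Of contigs with at least 10 CPM, 6.5% were lower where a SmedASXL contig had nearly the same profile, with a total within 5% and r over 0.95 (388 of 5965), and 5.19% where none did (36 of 693). This order was not stable, since the shares were 6.3% and 6.93% with no filter on low counts, 8.82% and 11.1% with limma voom, 3.94% and 4.18% with total counts alone and 3.79% and 3.81% with the replicate block. Without knock-down replicate 1 at 6 feedings the shares were 3.35% and 3.17%. The median log2 fold changes of the lower contigs were -1.70 and -2.14.

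Rises were few and rested on small counts. All 5 contigs called higher had a mean under 1 CPM over the 31 libraries, so that none reached the level set for naming, and the 2 with the largest fold change are given here although they were chosen after their values were seen. SmedSXL_084923 (346 bases) held 4, 1, 0 and 1 counts in replicates 1, s1, s2 and s3 at 4 feedings and 12, 15, 6 and 5 counts at 6 feedings. This is 0.0817 ± 0.0765 against 0.606 ± 0.254 CPM (SD, n = 4 each), with groups that did not overlap and a change of 2.49 on the log2 scale (SE 0.649, adjusted p = 0.0216 by edgeR). The call was lost when replicate s1, s2 or s3 of the 4-feeding group was left out (adjusted p = 0.0768, 0.0534 and 0.0866 by edgeR). It was also lost with total counts alone, in the libraries named with s only and without the 3 libraries dominated by SmedSXL_088910 (adjusted p = 0.0558, 0.0521 and 0.0528 by edgeR). DESeq2 and the fit of the contrast's libraries alone, with or without the replicate block, gave no adjusted p for it. The fits without replicate 1 or s1 of the 6-feeding group gave none either. The controls of that contig held 0.214 to 0.644 CPM at 4 feedings and 0 to 0.13 CPM at 6 feedings. Their change of -2.86 on the log2 scale was not called by edgeR (unadjusted p = 0.000953, adjusted p = 0.65). The difference between the steps was called (log2 difference 5.34, edgeR adjusted p = 0.018), and the fall in the controls made up the larger part of it. SmedSXL_070274 (309 bases) held 6, 1, 1 and 1 counts at 4 feedings and 4, 40, 22 and 8 counts at 6 feedings, where replicate 1 overlapped with the other group (2.82 on the log2 scale, SE 0.766, adjusted p = 0.0288 by edgeR). Its call was lost without any 1 of 5 libraries, s1, s2 and s3 of the 4-feeding group and s1 and s2 of the 6-feeding group, with adjusted p-values of 0.0537 to 0.171 by edgeR. The fit of the contrast's libraries alone, with or without the replicate block, gave no adjusted p for SmedSXL_070274.

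Contigs that were higher later on gave no call in this step. Of the tested contigs, 217 (0.909%) were higher than the control at 8 feedings, 1595 (6.68%) at 11 feedings and 129 at both. From 4 to 6 feedings 0 of them were called in either direction under nhr-1 RNAi by edgeR, against backgrounds of 5.92% lower and 0.0209% higher. Their median log2 fold change was 0.38, and -0.09 in the control. At or above 0 were 119 of 129, and 10 (7.75%) were below 0, against 48.5% over all contigs. The median log2 CPM of the 129 contigs ranged from 2.78 in replicate s2 to 3.21 in replicate 1 at 4 feedings and from 3.26 to 3.47 at 6 feedings, groups that did not overlap. Over all tested contigs this median did not overlap either, but it fell, from 1.73 to 1.91 at 4 feedings to 1.55 to 1.67 at 6 feedings.

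After 6 feedings no further change was called. Between 6 and 8 feedings under nhr-1 RNAi edgeR called 0 contigs, with 1014 (4.25%) at an unadjusted p under 0.05, and between 8 and 11 feedings it called 0, with 137 (0.574%). No other tool was run on these steps. The median level of the 1414 lower contigs was 2.13 CPM at 6 feedings, 1.4 CPM at 8 feedings and 1.35 CPM at 11 feedings, against 9.82, 10.2, 8.3 and 10.5 CPM in the controls at 4, 6, 8 and 11 feedings. SmedSXL_006914 stood at 65.0 ± 18.0 CPM (SD, n = 4) at 8 and 64.9 ± 24.2 CPM (SD, n = 4) at 11 feedings. SmedSXL_034119 stood at 0.288 ± 0.24 CPM (SD, n = 4) and 0.118 ± 0.0452 CPM (SD, n = 4). Whether the step from 4 to 6 feedings was larger than the later ones was not tested.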

How the data were processed

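Whole-animal poly(A) RNA of 32 libraries was counted on 177783 reference sequences, 93783 of them with the SmedSXL prefix. The values are raw read counts as deposited by the authors. Bowtie2 is named in the submitters' processing notes, and the sources used here do not name the counting program, its settings or whether strand was used. The row that names no sequence held 0 counts, and every column was matched to a library. The table also holds SmedASXL contigs, so 1 transcript can have several contigs, and CPM refers to the total of the whole table.

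Groups came from the library titles. The test was edgeR 4.0.16's quasi-likelihood test in R 4.3.3, with TMM factors and the filterByExpr filter (minimum count 10, minimum total 15), which kept 45762 sequences, 23870 of them SmedSXL. One mean per group was fitted over 31 libraries in 8 groups. The control labelled 7 feedings was left out. P-values were adjusted over all 45762 sequences. Log2 CPM used a prior count of 2. The filter acts on all groups, so a contig abundant in only 1 group could pass. The script was tested on simulated counts. Same-named libraries s1, s2 and s3 showed no shared deviations across the step, and the labels do not say whether they were paired. Libraries named 1 shared deviations (r = 0.75), which the main fit did not model. Alternatives included DESeq2 1.42.0 and limma 3.58.1. Intervals and p-values cover counting error and spread between these libraries only.

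The contigs named were, among called contigs with at least 5 CPM over the 8 libraries, without overlap and called also without replicate s2 at 4 feedings, the one with the largest fold change and the one with the largest difference in CPM that correlated at 0.95 or less with the first. The libraries, lists and rules were chosen with earlier results of these data known.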

Additional observations from a re-analysis of the deposited data

Results flagged for a closer look

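In groups of 4 libraries, 3 of 36 sets of values had 1 library far from the rest, where chance gives about 1 in 20. SmedSXL_034119 stood at 71.3 CPM in knock-down replicate s2 at 4 feedings, against 1.34 to 13.0 CPM in the other 3. SmedSXL_088910 stood at 304566 CPM in that same library. The contigs higher at both 8 and 11 feedings had a median log2 CPM of 3.1 in replicate 1 of the control at 4 feedings, above 2.88 to 2.91 in the others. Whether the composition of replicate s2 bears on these values was not tested.

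The step from 4 to 6 feedings differed between knock-down and control for 269 SmedSXL contigs by edgeR's interaction test. SmedSXL_084923 was among them, with a log2 difference of 5.34, on 0 to 15 counts per library in these groups. Its change was 2.49 in the knock-down and -2.86 in the control.

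Sequences outside the SmedSXL contigs also declined. Under nhr-1 RNAi 584 of 21399 tested SmedASXL contigs (2.73%) were lower at 6 than at 4 feedings, with a median log2 fold change of -1.70, and 3 were higher. Of 493 tested sequences with accession-style identifiers, 6 were lower, with a median of -1.53, and 1 was higher. In the control step edgeR called 0 of either.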

How the results depend on the processing

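The median log2 fold change of the 3144 contigs lower at 8 and 11 feedings kept its sign under every alternative run (-1.49 to -1.37) and with 1 library left out (-1.56 to -1.31). The number of contigs lower from 4 to 6 feedings, 1414, was 948 with only the libraries of the contrast, 643 with the replicate block added to that fit, and 875 with the libraries named with s only, stayed within 1.5 times under the other alternatives, and was 661 to 1557 with 1 library left out. For the names s1, s2 and s3 the deviations of same-named libraries correlated at -0.2, -0.26 and 0.003. These values cannot decide whether the libraries were paired, since the deviations are taken from means of only 4 libraries. For the libraries named 1 the correlation was 0.75, and only the library named 1 correlated best with its own name. The main fit did not model this. The fit with the block called 0 contigs higher and 0 in the difference between steps (3141 at an unadjusted p under 0.05), as did the same libraries with no block.

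The number higher, 5, was 0 with only the libraries of the contrast, 9 on SmedSXL contigs alone, 1 with total counts alone, 14 with DESeq2, 340 with limma voom (86.1% of its calls were lower), 3 without the 3 most abundant sequences and 3 without the 3 libraries dominated by 1 contig, an alternative chosen after seeing the data. It was 0 to 28 with 1 library left out. The control step, 0, gave 76 contigs with no filter on low counts, 8 with DESeq2 and 3210 with limma voom, and 0 in each fit with 1 control left out. The difference between steps, 269, was 0 with only the libraries of the contrast, 0 with the libraries named with s only, 22 with total counts alone, 525 on SmedSXL contigs alone, 588 without the 3 most abundant sequences, 995 with DESeq2, 1994 with limma voom and 1082 without the 3 dominated libraries, and 7 to 502 with 1 library left out. The cause was not tested. Total counts alone moved the median of all contigs in the control step to 0.21.

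The log2 fold change of SmedSXL_088910, -0.49, turned to 0.45 without knock-down replicate s2 at 4 feedings, 0.44 without the 3 dominated libraries and 0.19 with limma voom, and lay between -0.8 and 0.45 when 1 library was left out. It was not called under any alternative run, and it was among the sequences removed in one of them. Its share of counts was 2.38 percentage points lower at 6 than at 4 feedings, and 3.2 points higher without that replicate (exact permutation p = 0.343), with a range of -6.13 to 3.2 when 1 library was left out. What depth limits below 1 CPM was not tested.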

Other observations

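Contigs called lower had a lower neighbour in the numbering of the assembly more often than other contigs did, though most had none. Of 1050 contigs called lower from 4 to 6 feedings that had a tested contig with the preceding or following number, 190 (18.1%) had such a neighbour that was also lower. Among 17315 contigs that were not called lower, 8.9% had one. No sequences were used here, so whether neighbours are pieces of 1 transcript was not tested.

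Among the pairs of the 8 knock-down libraries, replicates s1 and s3 at 4 feedings had the most similar counts, with a chi-square of 7.69 per degree of freedom, where sampling noise alone gives about 1. The next closest pair, replicates 1 at 4 and at 6 feedings, stood at 20.8.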
